A study of Monodelphis domestica with 2 samples.

Results

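The growth factor and morphogen signalling genes are the secreted ligands, receptors and secreted antagonists of the WNT, BMP and TGFB, FGF, NOTCH, VEGF, PDGF, KIT, neuregulin, neurotrophin, IGF and GDNF pathways. They were chosen by the start of the gene symbol (such as WNT, FZD, BMP, FGFR or NRG), and 131 of the 30800 genes in the files were taken, after 1 matching gene was left out. Only the 11590 genes that the files pair with a symbol could match. The symbol rule also took in a few genes that are neither ligands nor receptors: BMP2K, a kinase, TGFBI, a matrix protein, TGFBRAP1, TGFB1I1, the RNA-binding IGF2BP1, IGF2BP2 and IGF2BP3, and the intracellular FGF11, FGF12 and FGF14. RNA was counted in single nuclei from V1, the primary visual cortex, of a marsupial, the opossum Monodelphis domestica. The 2 animals were adult males from a laboratory colony, aged 1.5 years (animal 1) and 2 years (animal 2), with no treatment named, and they formed 1 group. V1 of both hemispheres was pooled per animal and frozen, nuclei were sorted for a DNA stain, and each suspension filled 2 libraries, named 1A, 1B, 2A and 2B here. Each animal was prepared by a different experimenter, so age, experimenter and animal cannot be told apart, and 2 males of 1 species stand for no females or other ages.

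Growth factors and morphogens carry signals from one cell to its neighbours. A ligand such as a WNT, a BMP or an FGF leaves the cell that makes it, or stays on its surface as the NOTCH ligands do, and binds a receptor on the cell that responds. During development these pathways set the regions and cell types of the cortex, and in the adult cortex they remain in use for glial upkeep, vessel growth, myelination, synapse adjustment and the survival of neurons. RNA shows where a ligand or receptor can be made, not whether its signal is sent or received.

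The libraries held 55625042 to 69706055 UMIs (molecular tags that count each captured RNA once), and 7055 to 9664 nuclei per library carried a subclass label. Pairs of libraries shared 13 to 26 barcodes. The authors had drawn the 18 subclasses by clustering the same counts, so the tests below measure how large and how repeatable a difference was across both animals, not a difference between independently drawn groups. The markers checked were highest in their own subclass for astrocytes, oligodendrocytes (OD), oligodendrocyte precursors (OPC) and microglia, and SST, VIP and LAMP5 were highest in the subclasses named after them. FREM1 was highest in Lamp5 nuclei, ADARB2, shared by Vip, Lamp5 and Frem1, in Frem1, and LHX6, the one Pvalb marker matched, in Sst nuclei. FEZF2 and BCL11B of L5PT, TLE4 of L6CT and CPLX3 of L6b were highest in L5NP nuclei, and TSHZ2 of L5NP in endothelial nuclei, so the Pvalb, Frem1, L5PT and L6b labels were not borne out by these markers. Endothelial nuclei were few, 29 and 36 in the animals with 48514 and 57864 UMIs in all, so 3 UMIs there equal 61.8 and 51.8 CPM (a gene's UMIs per 1000000 UMIs of that subclass and animal). In them CLDN5 and CDH5 had 50 and 10 UMIs, and among mural and fibroblast markers COL1A1 and DCN had 0, RGS5 had 2 and LUM had 1. Orders of subclasses given below leave endothelial nuclei out unless they are named.

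Of the 131 members, 4 had no UMI in labelled nuclei (a count of 0 allows up to 3), the ligands BMP10, GDF3, FGF20 and FGF8, and 23 had fewer than 100 UMIs. The low-count filter kept 101 for testing, and the 30 it removed had at most 384 UMIs. At least 20 CPM in the highest subclass of both animals was reached by 67 members (51.1%), beside 31.6% of all genes. By family these were 11 of 34 in the WNT group, 14 of 28 in the BMP and TGFB group, 11 of 22 in the FGF group, 5 of 7 in the NOTCH group, 11 of 15 in the VEGF, PDGF and KIT group, 4 of 5 neuregulin and ERBB genes, 2 of 5 neurotrophin genes, 7 of 13 IGF genes and both GDNF receptors. Several ligands known from the embryo were among the low members, including WNT3A, WNT8B, FGF3, FGF4, GDF5 and NTF4, each of which had fewer than 100 UMIs.

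**Figure D1:**
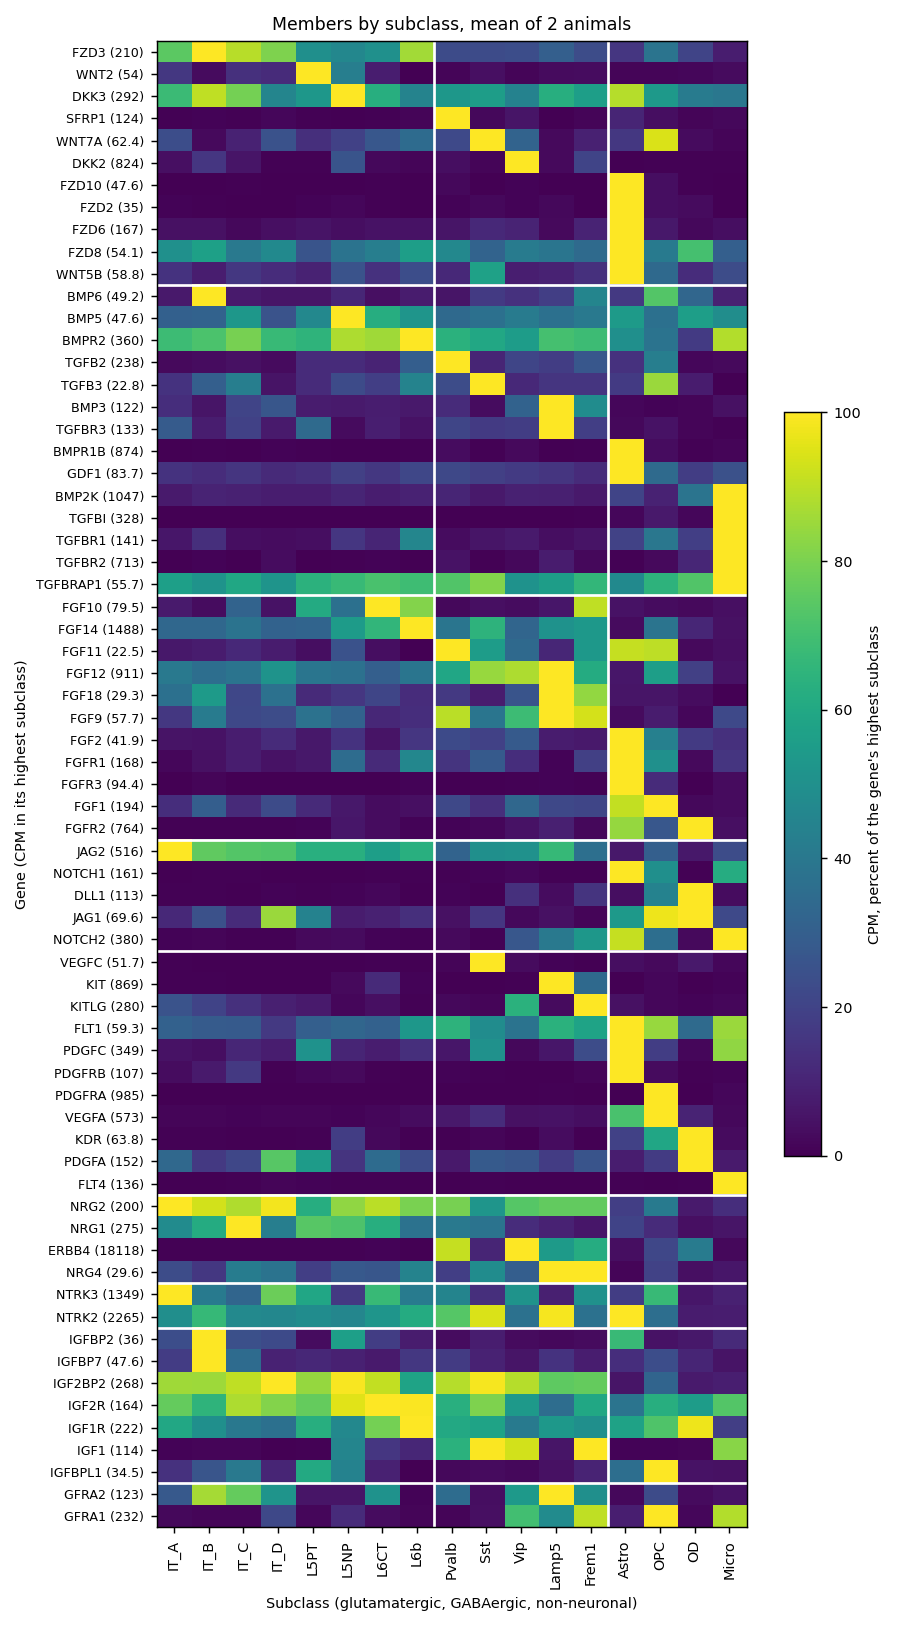
Mean CPM of 2 animals for the 67 members with at least 20 CPM, as a percentage of the gene's own highest subclass (colour), in the 17 subclasses with at least 50 nuclei per animal (columns), with the highest CPM beside each gene name and white lines between families and classes. A reader should see rows that light up in a single column, such as SFRP1 in Pvalb, PDGFRA in OPC or BMPR1B in Astro, beside rows spread over all neurons, such as IGF2BP2.

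Astrocytes were the highest subclass for 15 of the 67 members, Lamp5 interneurons for 8, microglia for 7, and OPC and oligodendrocytes for 5 each. Among all genes at that level, astrocytes were highest for 11.6%, Lamp5 for 3.86%, microglia for 26.6%, OPC for 5.71% and oligodendrocytes for 12.4%, the last pair beside 7.46% of the 67 members each. The highest subclass was the same in both animals for 51 of the 67 (76.1%), beside 71.3% of all genes at that level. In 50 of the 67 the 2 values of the highest subclass did not overlap those of the second (74.6%, beside 64.0% of all genes at that level). The rest shared their place with a neighbour, as WNT7A did between Sst interneurons and OPC, and JAG1 between oligodendrocytes and OPC.

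Across the 18 subclasses, 98 of the 101 tested members differed (edgeR's quasi-likelihood test with Benjamini-Hochberg adjustment over all 17227 tested genes, adjusted p under 0.05), beside 82.9% of all tested genes. The members not called were WNT4, FGFR4 and ERBB2, the last an orphan co-receptor for neuregulin signals, with an adjusted p of 0.770 and 1694 UMIs. A low member passes the filter only through the subclass where it is high, so these counts describe the tested members and not all 131.

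The 10 contrasts between subclasses were then read member by member, each giving the difference of mean log2 levels with every subclass weighted equally. In 19 of the called pairs of a member and a contrast, the mean CPM did not point the same way in both animals as the fitted difference. GABAergic against glutamatergic subclasses called 50 members (39.9% of all genes), with 26 higher in GABAergic and 24 higher in glutamatergic nuclei (19.4% and 20.5% of all genes). Pvalb and Sst against Vip, Lamp5 and Frem1 interneurons, subclasses usually traced to the medial and the caudal ganglionic eminence, called 44 (22.3%), with 25 higher in Pvalb and Sst (13.2%) and 19 higher in the other side (9.13%). With library A of each animal alone, that count was 29. The deep subclasses L5PT, L5NP, L6CT and L6b against the 4 IT subclasses called 40 (24.4%), with 15 higher in the deep side (11.0%) and 25 higher in the IT side (13.4%). Between IT_A and IT_C, the ends of the gradient of intratelencephalic (IT) neurons that the study describes, 27 were called (13.4%), with 14 higher in IT_A (7.42%) and 13 higher in IT_C (5.98%). With 53 nuclei drawn per subclass and animal, all of these counts fell, the last of them to 4, and 67 members were then tested.

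Against the 13 neuronal subclasses, astrocytes differed in 68 members (55.2% of all genes), with 41 higher (29.3%) and 27 lower (25.9%). OPC differed in 66 (44.3%), with 44 higher (23.4%) and 22 lower (21.0%). Oligodendrocytes differed in 60 (59.3%), a share of the tested members close to the background at 59.4% (27 higher, 30.7%, and 33 lower, 28.7%), and microglia differed in 42 (45.4%), which was 41.6% of the members, with 16 higher (20.9%) and 26 lower (24.6%). Endothelial nuclei differed in 36 (16.9%), with 25 higher (6.25%) and 11 lower (10.6%), and in 22 with library A of each animal alone. OPC against oligodendrocytes called 57 (38.0%), with 47 higher in OPC (20.2%) and 10 higher in oligodendrocytes (17.9%). With 53 nuclei drawn per subclass and animal, fewer members were tested and fewer called in each of these contrasts without endothelial nuclei, as listed at the end. The median member was 1.01 log2 units higher in OPC than in oligodendrocytes, beside -0.0045 for all tested genes. In astrocytes against neurons, 11 of 26 tested WNT members were higher and 3 lower, and 9 and 5 of 22 in the BMP and TGFB group. The FGF group had 6 higher and 6 lower of 13, the NOTCH group 5 and 1 of 7, and the VEGF, PDGF and KIT group 7 and 4 of 14. None of the 5 neuregulin and ERBB genes was higher there and 3 were lower, and the IGF group had 2 higher and 3 lower of 9. In OPC against oligodendrocytes, the WNT group had 6 higher and 1 lower, the BMP and TGFB group 12 and 3, the FGF group 8 and 1, the NOTCH group 3 and 1, the VEGF, PDGF and KIT group 7 and 2, the neuregulin and ERBB genes 3 and 1, and the IGF group 3 and 1. The 3 tested neurotrophin genes and both GDNF receptors were each higher in OPC.

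**Figure D2:**
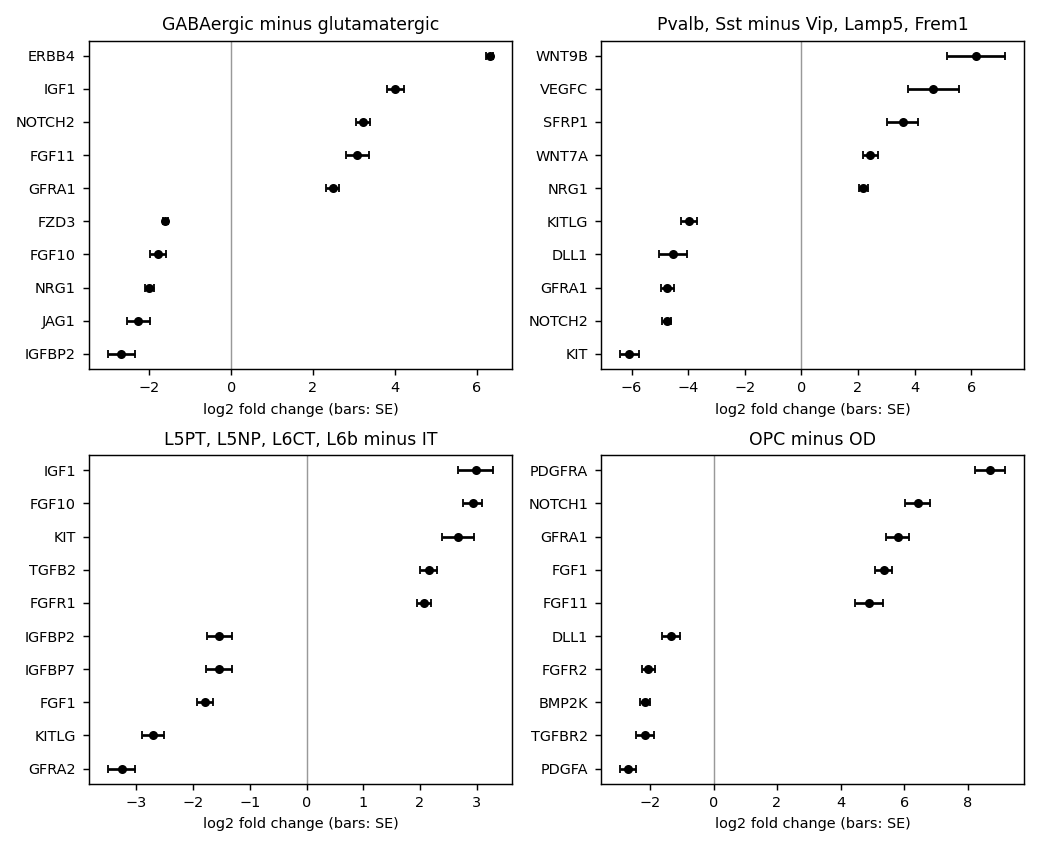
Log2 fold change with its standard error (bars) for the 5 largest called changes in each direction among members with at least 10 CPM in the higher side and the same direction in both animals, in 4 contrasts (panels). ERBB4 stands at 6.31 at the GABAergic end, KIT at -6.08 at the Vip, Lamp5 and Frem1 end, and PDGFRA at 8.71 at the OPC end. The WNT9B point has 2 UMIs on its lower side.

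KITLG, the ligand of the KIT receptor tyrosine kinase, stood at 248 and 311 CPM in Frem1 nuclei and at 148 and 209 CPM in Vip nuclei of animals 1 and 2, but at 7.27 and 9.30 CPM in Lamp5 nuclei. KIT stood at 849 and 889 CPM in Lamp5, 310 and 285 in Frem1, and 4.74 and 8.17 in Vip nuclei. Frem1 interneurons were therefore high for both genes, Vip for the ligand and Lamp5 for the receptor, with no overlap between the animals' values in any of these orders. In Pvalb and Sst nuclei neither gene passed 6.25 CPM in either animal. The fitted difference of Pvalb and Sst from the other 3 subclasses was -6.08 ± 0.33 (SE) log2 units for KIT (adjusted p = 7.27e-15) and -3.96 ± 0.28 for KITLG (adjusted p = 2.87e-12). Among glutamatergic neurons KIT was highest in L6CT at 107 and 101 CPM, while KITLG fell from 83.7 and 60.1 CPM in IT_A to 1.82 and 1.98 CPM in L6b. KITLG was lower in the deep subclasses by -2.70 ± 0.19 log2 units (adjusted p = 3.05e-12) and KIT was higher there by 2.67 ± 0.28 (adjusted p = 9.86e-09).

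ERBB4, a receptor tyrosine kinase that in cortex is known for its place on interneurons, stood at 17375 and 18862 CPM in Vip, 16399 and 16630 in Pvalb, 11252 and 11254 in Frem1, 9372 and 10426 in Lamp5, and 1965 and 1722 in Sst nuclei. In the 8 glutamatergic subclasses it ranged from 63.3 to 214 CPM, so no glutamatergic value reached any GABAergic one. The difference was 6.31 ± 0.08 log2 units (adjusted p = 1.56e-29). Sst was the low interneuron subclass, with values well under those of the other 4. Outside neurons ERBB4 was at 7769 and 7359 CPM in oligodendrocytes and at 3947 and 3808 CPM in OPC. Oligodendrocytes were higher than the equally weighted mean of neurons by 3.78 ± 0.09 log2 units (adjusted p = 4.68e-24), while remaining lower than Vip, Pvalb, Frem1 and Lamp5 nuclei.

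The ligand NRG1 was highest in IT_C at 280 and 271 CPM and lowest among neurons in Frem1 at 9.81 and 23.1 CPM. Its mean over glutamatergic subclasses was 163 and 180 CPM, and over GABAergic subclasses 51.9 and 65.5 CPM. It was lower in GABAergic nuclei by -2.0 ± 0.11 log2 units (adjusted p = 8.27e-16), and within them higher in Pvalb and Sst by 2.19 ± 0.17 (adjusted p = 1.25e-11). The glutamatergic subclasses IT_D, L6b and IT_A had values that overlapped those of Pvalb and Sst, so the classes were not fully apart. NRG2, another neuregulin, was spread over all neurons, from 103 and 106 CPM in Sst to 202 and 199 CPM in IT_A and 229 and 165 CPM in IT_D, whose values overlapped, and stood at 13.9 and 15.7 CPM in oligodendrocytes. That oligodendrocyte difference was -3.33 ± 0.17 log2 units (adjusted p = 2.98e-16). In endothelial nuclei NRG2 had 0 UMIs, which against a floor of 3 UMIs over both animals makes it at least 6.38-fold lower than in pooled neurons. NRG4 was highest in Lamp5 (26.7 and 32.6 CPM) and Frem1 (22.3 and 36.9 CPM), and astrocytes held 2 NRG4 UMIs in all. The ratio of neurons to astrocytes for NRG4 was 24.2, with an exact 95% counting interval from 6.70 to 200.3.

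PDGFRA, a receptor that usually marks OPC, stood at 984 and 985 CPM there and averaged 1.79 and 2.52 CPM over neuronal subclasses. As the label may rest on it, that value is a description. PDGFA, a ligand of that receptor, was highest in oligodendrocytes at 155 and 148 CPM, with 121 and 103 CPM in IT_D and 25.6 and 27.4 CPM in OPC. It was lower in OPC than in oligodendrocytes by -2.70 ± 0.24 log2 units (adjusted p = 2.07e-10), and the animals' values did not overlap. PDGFRB, which in most brains marks pericytes, was highest in astrocytes at 112 and 102 CPM, followed by IT_C at 17.2 and 18.5 CPM. Endothelial nuclei had no PDGFRB UMI. IT_C exceeded IT_A for PDGFRB, which stood at 4.25 and 3.22 CPM in IT_A, by 2.22 log2 units in size (-2.22 ± 0.25, adjusted p = 2.5e-07). PDGFC, another ligand, was highest in astrocytes (326 and 373 CPM) and microglia (304 and 279 CPM), and among neurons in Sst (167 and 186 CPM) and L5PT (158 and 200 CPM).

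VEGFA, the main growth factor of blood vessels, was highest in OPC (510 and 635 CPM) and astrocytes (412 and 403 CPM). Neuronal subclasses ranged from 4.72 to 74.7 CPM, with Sst the highest among them in both animals. Its receptor FLT1 marked endothelial nuclei at 2948 and 2281 CPM (143 and 132 UMIs), which again is a description since FLT1 is a usual marker of these cells. Everywhere else FLT1 stayed between 7.04 and 66.8 CPM. KDR, the principal signalling receptor for VEGFA on vessels, stood at 72.8 and 54.7 CPM in oligodendrocytes and 35.6 and 39.8 CPM in OPC, and at 124 CPM (6 UMIs) in endothelial nuclei of animal 1 and 0 in animal 2. Its mean over neuronal subclasses was 1.32 and 1.35 CPM. KDR was higher than in neurons by 7.84 ± 0.31 log2 units in oligodendrocytes (adjusted p = 7.13e-18) and by 6.90 ± 0.40 in OPC (adjusted p = 8.38e-14). Among neurons L5NP was highest for KDR at 10.5 and 12.7 CPM, followed by L6CT at 1.67 and 0.831 CPM.

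VEGFC, a ligand of lymphatic vessels, was almost confined to Sst interneurons among the labelled subclasses with at least 50 nuclei per animal. It stood at 50.5 and 52.9 CPM there, against at most 3.66 CPM in any other of them. Pvalb and Sst held 186 and 143 VEGFC UMIs, and Vip, Lamp5 and Frem1 held 5 and 0, a difference of 4.66 ± 0.90 log2 units (adjusted p = 2.44e-04, and 1.00 with 53 nuclei per subclass and animal). FLT4, the receptor of VEGFC, was highest in microglia at 119 and 153 CPM, where it exceeded neurons by 7.79 ± 0.36 log2 units (adjusted p = 5.67e-17). Endothelial nuclei had 4 and 6 FLT4 UMIs. WNT9B was also highest in Sst interneurons, at 19.7 and 19.8 CPM (70 and 52 of its 202 UMIs), with 143 UMIs in Pvalb and Sst and 2 in Vip, Lamp5 and Frem1. That ratio of levels was 22.5, with an exact 95% counting interval from 6.12 to 187.6.

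FGFR3 was an astrocyte gene, at 102 and 86.6 CPM there against 12.3 and 11.2 CPM in OPC and at most 1.98 CPM in any neuronal subclass, and it exceeded neurons by 7.86 ± 0.23 log2 units (adjusted p = 4.5e-22). FGFR2 was highest in oligodendrocytes at 773 and 755 CPM and also high in astrocytes at 622 and 665 CPM. OPC had 220 and 196 CPM of FGFR2, lower than oligodendrocytes by -2.05 ± 0.21 log2 units (adjusted p = 2.71e-09), with no overlap. FGFR1 was highest in astrocytes (165 and 171 CPM) and OPC (94.3 and 74.0 CPM), near absent from oligodendrocytes (4.50 and 4.19 CPM), and in neurons higher in the deep subclasses by 2.07 ± 0.13 log2 units (adjusted p = 3.2e-13). L6b (103 and 51.6 CPM) and L5NP (69.4 and 49.1 CPM) led that side.

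FGF2, a ligand of several FGF receptors, was highest in astrocytes at 42.5 and 41.3 CPM, followed by OPC at 19.0 and 17.4 CPM. FGF1, a ligand of all FGF receptors, was highest in OPC (192 and 195 CPM) and astrocytes (182 and 170 CPM), and at 3.07 and 5.50 CPM in oligodendrocytes. OPC exceeded oligodendrocytes by 5.36 ± 0.26 log2 units (adjusted p = 5.06e-16). Among glutamatergic neurons FGF1 was lower in the deep side than in the IT side by -1.78 ± 0.14 (adjusted p = 1.99e-11). FGF10 ran the other way, with 78.9 and 80.1 CPM in L6CT, 58.1 and 71.4 in L6b, 35.6 and 61.6 in L5PT and 26.9 and 32.1 in L5NP. Of the IT subclasses, IT_C had 18.9 and 31.8 CPM, under L5NP in animal 1 and close to it in animal 2. IT_A, IT_B and IT_D had between 1.76 and 5.93 CPM. The deep side was higher for FGF10 by 2.93 ± 0.17 log2 units (adjusted p = 1.55e-14). Frem1 was the one GABAergic subclass with as much FGF10, at 71.3 and 72.6 CPM. FGF9, a ligand often made by neurons, was highest in Lamp5 (54.9 and 60.5 CPM), Frem1 (65.1 and 42.6 CPM) and Pvalb (49.7 and 53.9 CPM), with the Frem1 values spanning those of the other pair, and astrocytes had 7 and 3 of its UMIs. It was lower in astrocytes than in neurons by -3.60 ± 0.39 log2 units (adjusted p = 4.16e-09) and in oligodendrocytes by -4.14 ± 0.39 (adjusted p = 1.98e-10). The intracellular FGF12 and FGF14, which act on sodium channels, were high across neurons, with means over neurons of 480 and 508 CPM and of 759 and 681 CPM. OPC had 601 and 418 CPM of FGF12, not called against neurons, and 586 and 560 CPM of FGF14, lower by -0.30 ± 0.11 log2 units (adjusted p = 0.0213), while astrocytes had 57.6 and 53.0 CPM and 49.6 and 43.3 CPM.

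In the WNT group 5 frizzled receptors were highest in astrocytes, 4 of them with at least 20 CPM, FZD10 at 41.4 and 53.8 CPM, FZD2 at 28.2 and 41.7 CPM, FZD6 at 141 and 193 CPM and FZD8 at 46.8 and 61.5 CPM. FZD7, the fifth, stood at 8.27 and 9.31 CPM. Neurons averaged 0.198 and 0.173 CPM of FZD10 and 0.342 and 0.261 CPM of FZD2. Astrocytes exceeded them by 8.82 ± 0.35 log2 units for FZD10 (adjusted p = 8.04e-16) and by 7.52 ± 0.36 for FZD2 (adjusted p = 3.12e-15). FZD6 was also high in endothelial nuclei, at 598 and 294 CPM on 29 and 17 UMIs. FZD3, the receptor known for axon guidance, went the other way and was a glutamatergic gene. It ranged from 96.2 to 215 CPM in glutamatergic subclasses and from 41.7 to 65.9 CPM in GABAergic ones with no overlap, a difference of -1.60 ± 0.07 log2 units (adjusted p = 2.03e-17).

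Of the secreted WNT antagonists, DKK2 stood at 872 and 777 CPM in Vip interneurons, 198 and 230 in L5NP, 175 and 165 in Frem1 and 105 and 157 in IT_B. In astrocytes, OPC and oligodendrocytes it stayed between 2.84 and 5.60 CPM. Its mean over all non-neuronal subclasses was 35.8 and 96.6 CPM, so it was higher in microglia or endothelial nuclei. SFRP1 stood at 141 and 107 CPM in Pvalb interneurons and at most 17.4 CPM in any other subclass. Pvalb and Sst exceeded Vip, Lamp5 and Frem1 for SFRP1 by 3.57 ± 0.55 log2 units (adjusted p = 9.54e-06, and 0.114 with 53 nuclei per subclass and animal). DKK3, by contrast, was spread over all subclasses with at least 50 nuclei per animal, from 115 to 301 CPM. Among WNT ligands, WNT2 was highest in L5PT (48.1 and 59.9 CPM), followed by L5NP (24.5 and 21.7 CPM), with no overlap. WNT7A was highest in Sst (65.1 and 59.7 CPM) and OPC (46.5 and 71.5 CPM), and WNT5B in astrocytes (67.9 and 49.8 CPM). WNT9A stood at 17.5 and 23.9 CPM in IT_A against 1.72 and 2.76 CPM in IT_C, a difference of 3.24 ± 0.50 log2 units (adjusted p = 2.2e-05), and at 3.52 and 30.5 CPM in IT_D, above IT_A in animal 2.

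In the BMP and TGFB group, BMPR1B, a type I BMP receptor, stood at 887 and 861 CPM in astrocytes and averaged 8.30 and 6.25 CPM over neurons, a difference of 7.35 ± 0.11 log2 units (adjusted p = 3.22e-29). Its partner BMPR2, the type II receptor, was broad, between 136 and 398 CPM in all subclasses with at least 50 nuclei per animal other than oligodendrocytes (56.9 and 66.0 CPM), and endothelial nuclei had 1072 and 899 CPM of it on 52 UMIs in each animal. TGFBR2, the type II TGFB receptor, was a microglial gene at 694 and 732 CPM, and exceeded neurons there by 6.25 ± 0.14 log2 units (adjusted p = 1.37e-24). Oligodendrocytes came next at 87.8 and 65.4 CPM, higher than neurons by 3.50 ± 0.16 (adjusted p = 1.18e-17). Its partner TGFBR1 was highest in microglia (141 and 140 CPM), then L6b (63.6 and 65.5 CPM) and OPC (57.4 and 54.7 CPM). TGFBR3, the co-receptor, was neuronal, highest in Lamp5 at 145 and 121 CPM, and microglia held 1 of its UMIs.

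Of the ligands, TGFB2 stood at 241 and 235 CPM in Pvalb interneurons, then at 132 and 72.2 CPM in OPC and 70.8 and 71.4 CPM in L6b. Between deep and IT neurons it differed by 2.15 ± 0.14 log2 units (adjusted p = 6.24e-13), with the deep side higher and no overlap of the side means (41.0 and 35.6 against 8.10 and 7.34 CPM). BMP3 was highest in Lamp5 (118 and 126 CPM), BMP6 in IT_B (52.9 and 45.4 CPM), BMP5 in L5NP (39.5 and 55.7 CPM) and GDF1 in astrocytes (89.3 and 78.1 CPM). Endothelial nuclei, left out of these orders, were higher on average for BMP6, as their inclusion put the non-neuronal mean at 53.6 and 48.1 CPM. TGFBI, a matrix protein induced by TGFB, was a microglial gene at 324 and 332 CPM against 0.464 and 0.677 CPM over neurons. Its difference from neurons was 9.34 ± 0.26 log2 units (adjusted p = 2.79e-21), and OPC were also higher by 5.75 ± 0.40 (adjusted p = 2.16e-12) at 17.5 and 27.4 CPM. BMP2K was highest in microglia at 1039 and 1056 CPM and higher in oligodendrocytes (413 and 390 CPM) than in OPC (103 and 101 CPM).

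NOTCH1, a receptor cut on contact with its ligand to free a transcriptional regulator, stood at 163 and 158 CPM in astrocytes, 104 and 95.7 in microglia, 76.3 and 84.0 in OPC and 0.614 and 1.05 in oligodendrocytes, with a neuronal mean of 0.810 and 1.06 CPM. Astrocytes exceeded neurons for NOTCH1 by 7.52 ± 0.16 log2 units (adjusted p = 1.47e-25), and OPC exceeded oligodendrocytes by 6.43 ± 0.39 (adjusted p = 4.84e-14). NOTCH2 was high in microglia (404 and 357 CPM) and astrocytes (317 and 377 CPM), which overlapped. Unlike NOTCH1 it was also high in Frem1 (207 and 195 CPM), Lamp5 (162 and 147 CPM) and Vip (107 and 98.8 CPM) interneurons, against 9.89 and 10.3 CPM in Pvalb and 2.82 and 2.66 in Sst. That interneuron difference was -4.75 ± 0.16 log2 units (adjusted p = 1.54e-19). Of the ligands, DLL1 stood at 126 and 101 CPM in oligodendrocytes and at 56.4 and 44.2 CPM in OPC, and among neurons at 21.3 and 10.4 CPM in Vip and 14.3 and 19.6 CPM in Frem1. Oligodendrocytes exceeded neurons for DLL1 by 7.02 ± 0.19 (adjusted p = 3.35e-22) and OPC for DLL1 by 1.34 log2 units in size (-1.34 ± 0.27, adjusted p = 2.15e-04, and 0.176 with 53 nuclei per subclass and animal). JAG2 was broad over neurons and highest in IT_A at 516 and 517 CPM. It was low in astrocytes (27.4 and 40.1 CPM) and oligodendrocytes (26.8 and 38.2 CPM), but higher in OPC or microglia. In endothelial nuclei it read 1979 and 2074 CPM on 96 and 120 UMIs. JAG1 was high in oligodendrocytes (85.5 and 53.7 CPM), OPC (76.8 and 59.1 CPM) and IT_D (63.3 and 54.9 CPM), which overlapped. Endothelial nuclei, left out of that order, were higher for JAG1, at 268 and 311 CPM in animals 1 and 2.

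Among neurotrophin receptors NTRK2, the receptor of BDNF, was highest in astrocytes (2390 and 2141 CPM), Lamp5 (2202 and 2272 CPM) and Sst (2165 and 2114 CPM), which could not be ordered. NTRK3, the receptor of NTF3, stood at 1163 and 1536 CPM in IT_A and 445 and 437 CPM in IT_C, a difference of 1.67 ± 0.20 log2 units (adjusted p = 4.46e-07). Its lowest neuronal level was in Lamp5, at 88.8 and 152 CPM. The ligand NTF3 was low everywhere, with a highest level of 6.64 and 5.60 CPM in OPC.

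Of the IGF genes, the ligand IGF1 was an interneuron and microglial gene. It stood at 122 and 105 CPM in Frem1, 111 and 115 in Sst, 121 and 90.6 in Vip and 78.5 and 66.5 in Pvalb, but at 4.04 and 8.53 in Lamp5, and microglia had 117 and 70.2 CPM. GABAergic nuclei exceeded glutamatergic ones by 4.01 ± 0.21 log2 units (adjusted p = 1.61e-15). Within the glutamatergic class L5NP was apart at 51.7 and 51.9 CPM, and the deep side exceeded the IT side by 2.98 ± 0.31 (adjusted p = 6.83e-09). The receptor IGF1R was broad outside endothelial nuclei, from 30.2 CPM in microglia to 273 CPM in oligodendrocytes of animal 2, where animal 1 had 160 CPM. With endothelial nuclei counted, its non-neuronal mean was 350 and 255 CPM, so on average they stood higher than the rest. IGFBP7, a secreted binding protein, was high in endothelial nuclei at 763 and 864 CPM on 37 and 50 UMIs, 6.11 ± 0.31 log2 units above neurons (adjusted p = 3.83e-15), and otherwise highest in IT_B at 32.4 and 62.9 CPM. IGFBP2 was also highest in IT_B, at 36.6 and 35.4 CPM.

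The GDNF family receptors differed among interneurons and layers. GFRA1, which binds GDNF, stood at 195 and 225 CPM in Frem1, 163 and 159 in Vip and 105 and 119 in Lamp5, and at 3.07 and 3.25 CPM in Pvalb, with a difference between those sides of -4.74 ± 0.23 log2 units (adjusted p = 6.19e-16). OPC had 219 and 245 CPM and oligodendrocytes 3.68 and 3.66 CPM of GFRA1, which differed by 5.80 ± 0.36 (adjusted p = 6.29e-14). Microglia had 106 and 305 CPM, the widest gap between the animals among the high values of GFRA1. GFRA2, the receptor of neurturin, was highest in Lamp5 at 145 and 102 CPM, with 98.4 and 115 CPM in IT_B, 97.7 and 91.2 in IT_C, 78.2 and 54.2 in Vip, 83.8 and 39.2 in Frem1 and 51.0 and 36.7 in Pvalb, but 5.64 and 3.42 in Sst. GABAergic nuclei were higher for GFRA2 by 0.74 ± 0.22 log2 units (adjusted p = 0.00793). The class means were 72.6 and 47.2 CPM in GABAergic against 49.8 and 44.6 CPM in glutamatergic nuclei, close together in animal 2. Among glutamatergic neurons GFRA2 was lower in the deep side by -3.26 ± 0.24 log2 units (adjusted p = 8.91e-12), although L6CT kept 65.9 and 59.7 CPM.

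Within a subclass the authors had drawn finer types, and some members varied among them. SFRP1 in Pvalb nuclei stood at 341 and 231 CPM in Pvalb_4, 155 and 156 CPM in the next type, Pvalb_1, and 29.1 and 11.5 CPM in the lowest, Pvalb_6. VEGFC in Sst nuclei stood at 80.5 and 99.5 CPM in Sst_3, against 26.3 and 24.5 in Sst_2 and 23.1 and 17.1 in Sst_1. In oligodendrocytes the types differed for PDGFA and JAG1, with PDGFA at 202 and 214 CPM in OD_3 and 77.8 and 41.2 in OD_4, and JAG1 at 31.3 and 12.0 CPM in OD_3 and 98.2 and 82.4 in OD_4. OD_2 came second for both, at 161 and 155 CPM of PDGFA and 85.6 and 74.6 CPM of JAG1. As types were drawn from the same counts, these are descriptions with no test.

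Other genes of the same pathways were read from a list of 132 co-receptors, antagonists and downstream genes, of which 111 were in the files and 100 were tested. Of these, 97 differed among subclasses (82.9% of all tested genes), 52 were higher (29.3%) and 24 lower (25.9%) in astrocytes than in neurons, and 40 were higher (20.2%) and 16 lower (17.9%) in OPC than in oligodendrocytes. On the NOTCH side, the target gene HES5 and the NOTCH-modifying enzyme LFNG were highest in astrocytes, at 219 and 302 CPM and at 417 and 418 CPM. On the WNT side, the agonist RSPO2 was highest in Lamp5 interneurons at 523 and 413 CPM and the ligand transporter WLS in IT_B at 117 and 112 CPM. The neurotrophin BDNF was highest in IT_D at 153 and 159 CPM. EGF, a ligand of EGFR, was highest in microglia at 1354 and 992 CPM, and EGFR was highest in Vip nuclei at 539 and 680 CPM. The signalling partner of GFRA1, RET, was highest in Vip at 89.2 and 90.6 CPM, while GDNF itself, with 179 UMIs, fell under the low-count filter.

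Between the animals, 35 members had at least 20 CPM over all labelled nuclei of the higher animal. In 31 of them (81.1% of all genes at that level) the libraries of the animals did not overlap, and in 3 of those (3.93%) the difference reached 1.5-fold, each time with animal 1 higher. There is 1 animal on each side, so no test was possible. FZD8 stood at 32.2 CPM in animal 1 and 19.3 CPM in animal 2, and was lower in animal 2 in 15 of the 16 subclasses with at least 20 UMIs, astrocytes being the exception. With the subclasses weighted equally, its level was 1.37-fold higher in animal 1. BMPR1B stood at 36.1 and 22.5 CPM and FGFR2 at 71.8 and 47.6 CPM. Their main cell types were also more frequent in animal 1, where astrocytes were 7.93% of labelled nuclei against 4.88% and oligodendrocytes 14.2% against 10.6%. With equal weights BMPR1B was 1.08-fold and FGFR2 1.03-fold higher in animal 1.

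A further pair was chosen after the values were seen. IGF2BP2 was higher in animal 2 in all 17 subclasses with enough UMIs, for example 251 against 208 CPM in IT_A and 295 against 235 CPM in Sst. FZD6, at equal weights, stood at 13.8 CPM in animal 1 and 22.6 CPM in animal 2, and in astrocytes at 141 and 193 CPM. Age, experimenter and individual cannot be told apart in these differences.

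**Figure D3:**
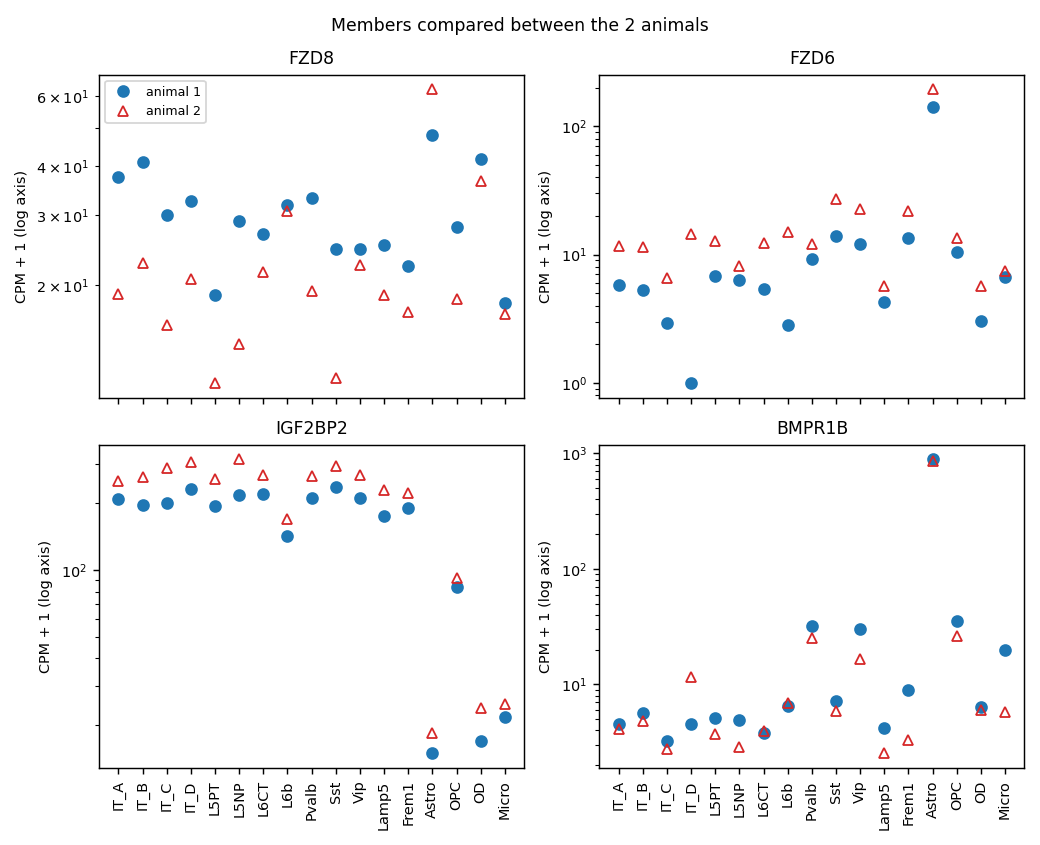
CPM + 1 on log axes in the 17 subclasses with at least 50 nuclei per animal for FZD8, FZD6, IGF2BP2 and BMPR1B, with circles for animal 1 and triangles for animal 2. FZD8 circles lie above the triangles outside Astro and IGF2BP2 triangles lie above the circles in all 17 subclasses, while the BMPR1B values of both animals meet in Astro at 887 and 861 CPM.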

How the data were processed

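UMI counts of nuclear RNA in 4 libraries were used as deposited. Per the labels and the study's methods, the authors prepared 10x 3′ libraries, aligned reads to ASM229v1 with introns included and Ensembl gene ends extended (Cell Ranger 6.1.1 per the labels, 7.1.0 per the file headers), clustered the nuclei, and gave subclass and type labels. The deposited Scrublet score, a fraction from 0 to 1, and its doublet call came from the authors too. All else was computed here. Counts of 32764 labelled nuclei of 36558 barcodes were summed per animal and subclass (36 sums). The rest were left out of the comparisons. Libraries of an animal share a suspension and counted as 1 replicate, so n = 2. With 2 animals, p-values measure the spread between these animals.

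Sums were tested with edgeR 4.0.16 (R 4.3.3): TMM scaling, filterByExpr, quasi-likelihood test, Benjamini-Hochberg adjustment over 17227 genes. Each contrast is a difference of means of log2 levels over subclasses. CPM is UMIs per 1000000 UMIs of the same sum. For 17 subclasses with at least 50 nuclei per animal, a highest subclass was taken. Named genes were members with at least 20 CPM in the highest subclass of both animals and, per contrast, the 5 largest called changes each way with at least 10 CPM on the higher side and 1 direction in both animals. The other pathway genes and the members given for a few further contrasts were picked after their values were seen. The members and lists were chosen with earlier results of these data known. On simulated GABAergic against glutamatergic data over 14883 genes, 92 of 100 genes changed 2-fold and 100 of 100 changed 4-fold were recovered, with 8 false calls. The changed genes averaged over 20 UMIs per sum and the simulated sums were independent, so lower members and shared animals were not covered. The pairing of sums comes from the shared animal: over 136 pairs of subclasses, the correlation of deviations across genes was 0.0204 to 0.597 (median 0.134). Alternatives were DESeq2 (1.42.0) scaling and test, no low-count filter, the animal as replicate block, doublets left out, equal nuclei, small subclasses left out, single libraries, class sums, each animal left out, and labels predicted without the members (matching 96.7% of nuclei). Counting intervals and floors (3 UMIs) cover counting error only.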

Additional observations from a re-analysis of the deposited data

Results flagged for a closer look

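Nuclei that the study set aside as ambiguous, and that entered no comparison, held more of IGFBPL1, a member related to IGF-binding proteins, than any labelled subclass. In ambiguous GABAergic nuclei IGFBPL1 stood at 95.7 and 39.0 CPM in animals 1 and 2 (62 and 43 UMIs in 302 and 428 nuclei). In ambiguous non-neuronal nuclei it stood at 63.8 and 51.2 CPM (25 and 20 UMIs in 138 nuclei of each animal). Its highest labelled subclass, OPC, had 46.0 and 23.0 CPM.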

How the results depend on the processing

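No named fold change reversed under the alternatives in which it could be fitted. With 53 nuclei drawn per subclass and animal, 67 members were tested in place of 101 and fewer were called: 63 across subclasses, 28 between GABAergic and glutamatergic, 21 between Pvalb and Sst and the other interneurons, 22 between deep and IT, 4 between IT_A and IT_C, 39 for astrocytes, 28 for OPC, 25 for oligodendrocytes and 27 for microglia against neurons, and 23 for OPC against oligodendrocytes. With library A of each animal alone, 29 were called between Pvalb and Sst and the other interneurons and 22 for endothelial nuclei. With the animal as replicate block the counts were 99 across subclasses and 50, 47, 43, 35, 68, 69, 60, 42, 36 and 63 in the 10 contrasts in the order of the report, each within 1.5 times the count without the block. Between animals, weighting 17 subclasses equally, chosen after seeing the data, left 1 member at 1.5-fold, FZD6, which was not among the 3. Of 100 named fold changes, 16 of the 93 that could be fitted lost their call with equal nuclei: IGFBP2 (GABAergic against glutamatergic), SFRP1 and VEGFC (Pvalb and Sst), FGFR1, FGF10, IGFBPL1, PDGFA, WNT7A and KITLG (IT_A against IT_C), NRG4 (astrocytes), FGF10, FGF9, DKK2 and IGF1 (OPC against neurons), WNT7A (microglia) and DLL1 (OPC against oligodendrocytes). Library A alone lost 2, WNT7A in microglia and FZD4 in endothelial nuclei, and library B alone lost 3, IGFBP2, PDGFA and FZD4, in the same contrasts. Scrublet called 798 labelled nuclei doublets, which were kept. Without them 8 of 67 highest-subclass levels moved by more than their SD between animals (BMPR1B, TGFBI, TGFBR1, FGF1, FGF10, JAG2, NOTCH1 and PDGFRA). With either animal left out all 100 kept their sign, and counts of calls could not be given from 1 animal. Leaving out small subclasses removes the endothelial contrast. Endothelial values rest on 29 and 36 nuclei.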
